A study of Mus musculus with 6 samples.

Results

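Macrophages are the resident phagocytes of embryonic tissue, and 39 genes of their uptake receptors, Fc receptors, complement, lineage and effector functions were followed in cultured mouse pancreatic buds. The genes were given as a list of symbols, matched to the array's rows through the platform's Entrez gene identifiers. Of the 39 genes, 38 had a row among 24010 named genes, and Lyz2 was not analysed here. By role they comprised 8 scavenger and other uptake receptors, 5 Fc receptors with their signalling chain, the 3 chains of C1q, 11 lineage and leukocyte genes, 5 enzymes and effectors and 6 other surface receptors. The list was drawn up with the changes of these genes under both inhibitors already known. Their values against control, and the p-values of the fit, are therefore a description and no independent evidence that macrophage genes respond.

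Dorsal pancreatic buds were dissected from mouse embryos of stage E11.5 and cultured for 24 h with a bromodomain inhibitor or with solvent. The groups were I-BET151 at 500 nM, JQ1 at 100 nM and a control with 0.1% DMSO (called CTRL), each with 2 arrays, and each array held RNA from a pool of 10 buds. No strain, genotype or sex was given in the sources used here, nor whether the 2 pools of a group shared a litter or a culture day. The p-values therefore cover only the variation between these pools, which may be technical. Whole buds were used without sorting, and so each array mixes the RNA of epithelium, mesenchyme, vessels, blood and resident immune cells.

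I-BET151 and JQ1 displace the BET proteins, readers of acetylated histones, from chromatin. Yolk-sac and fetal liver precursors seed macrophages into organs before birth. They depend on the factor PU.1 (Spi1) and on the receptor Csf1r, and they clear dying cells through scavenger, phosphatidylserine and complement receptors. Fc receptors bind the constant part of antibodies, and activating ones signal through a shared gamma chain.

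The median intensity was 57 on both CTRL arrays, 55 on both I-BET151 arrays and 54 and 55 on the JQ1 arrays. Over all named genes the arrays of a group correlated at 0.9952 to 0.9963 on the log2 scale, treated against CTRL arrays at 0.9903 to 0.9927, and no pair of arrays held identical values. As a check of the tissue, the progenitor factor Pdx1 was at 246 and 281 in I-BET151 buds, 244 and 330 in JQ1 buds and 252 and 228 in CTRL buds. Gcg, the glucagon gene, was at 4740 to 5494 on all 6 arrays. The labels and the table name no scan date or other batch.

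Under the inhibitors a minority of the macrophage genes fell, 1 receptor rose, and most were not called. The scavenger receptor Msr1, the Fc receptor Fcgr1 and the Fc receptor-like gene Fcrls fell under both inhibitors. Mpeg1, Cybb, P2ry12, Ms4a7 and Itgb2 fell under JQ1, Pf4 fell for the mean of both inhibitors, and the scavenger receptor Stab1 rose under JQ1. The C1q chains, Csf1r, Spi1, Ptprc, Fcer1g and Tyrobp were not called in any comparison.

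Calls come from limma's fit to all 6 arrays, at an adjusted p below 0.05 over all 24010 genes. With I-BET151, 3 of 38 members fell and 0 rose; of all genes 1.13% were called, 0.87% lower and 0.262% higher. With JQ1, 8 members fell and 1 rose; of all genes 3.8% were called, 2.67% lower and 1.13% higher. For the mean of both inhibitors, 8 members fell and 1 rose; of all genes 4.92% were called, 3.33% lower and 1.59% higher. Both inhibitors were set against the same 2 CTRL arrays, so their comparisons are not independent of each other.

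The median log2 change of the 38 members was -0.20 under I-BET151 and -0.35 under JQ1, beside medians of 0.00 and 0.02 over all genes. The median of all members hides a spread from -1.62 (Mpeg1) to 0.79 (Stab1) under JQ1. Under each inhibitor 29 of 38 members had a value below 0, while 46% of all genes did with I-BET151 and 44.1% with JQ1. All 4 treated arrays lay below both CTRL arrays for 19 members and above them for 4, while 14.9% and 14.4% of all genes were placed so. In whole buds, fewer macrophages and less RNA per macrophage cannot be told apart.

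The calls rest on having all 6 arrays in 1 fit. When any array of I-BET151, JQ1 or CTRL was dropped, when only the groups compared were fitted, or when replicate number was a block, limma called 0 genes, members included. Across these fits 13 to 22 members had an unadjusted p below 0.05 with I-BET151 and 19 to 25 with JQ1, beside 3596 to 4434 and 4245 to 5363 of all genes. A further alternative, chosen after seeing the data, dropped 1 array together with the genes dimmer than the median intensity. It called 5 to 8 members for I-BET151 and 8 to 19 for JQ1 in its 6 fits. These counts are a description only, because the filter on mean intensity keeps a member such as Msr1 through its CTRL arrays (129 and 124), while its treated arrays (42 to 53) lie below the array medians. Centring of arrays on their medians moved the balance of calls to 183 higher and 350 lower genes for I-BET151, where 63 and 209 are reported, and to 664 higher and 727 lower for JQ1, where 272 and 640 are reported.

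**Figure D1:**
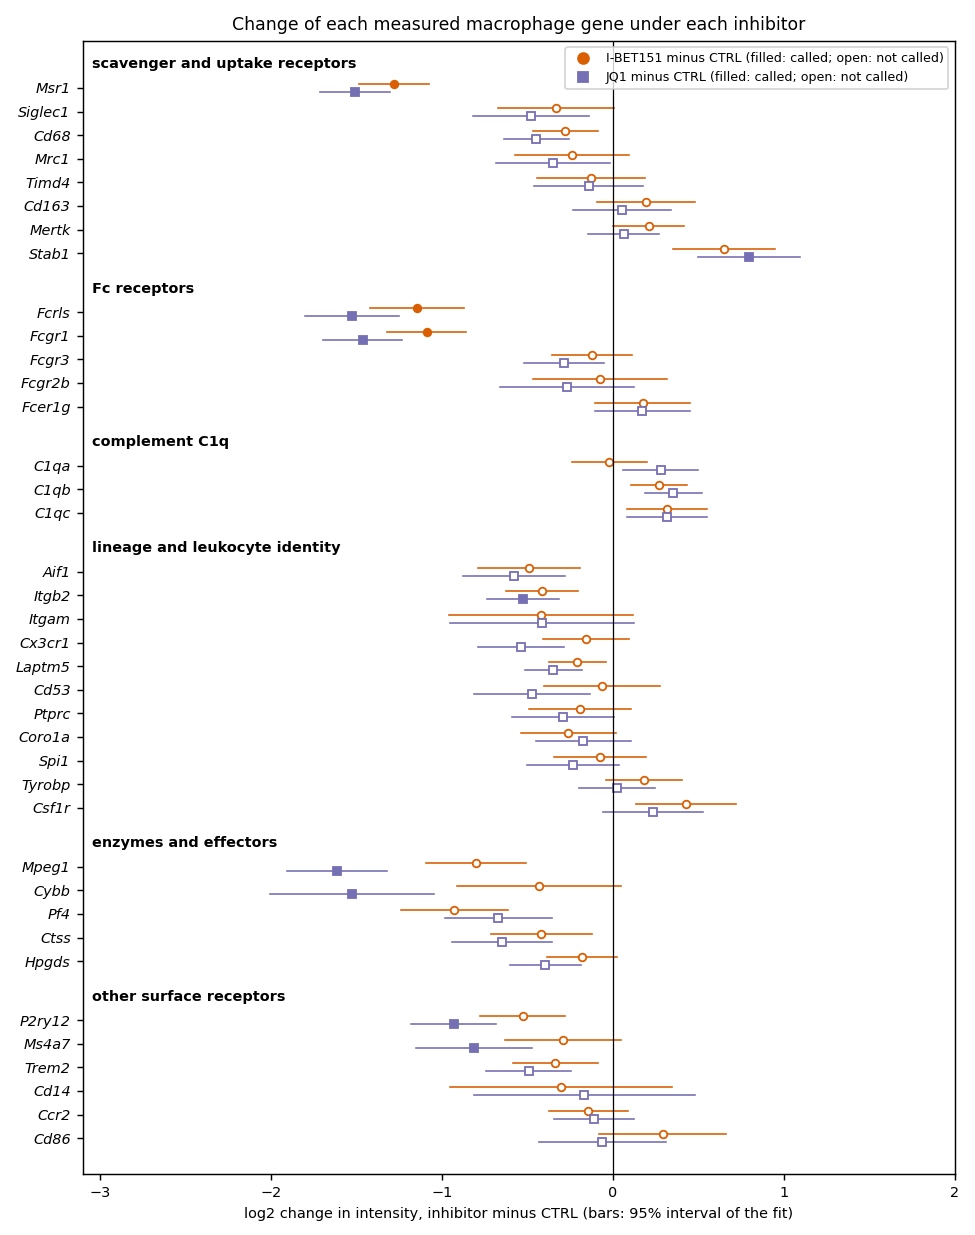
Log2 change in intensity of each of the 38 measured macrophage genes, I-BET151 minus CTRL (circles) and JQ1 minus CTRL (squares), with 95% intervals of the fit (2 arrays per group), grouped by role. Filled symbols are called genes; Msr1, Fcrls and Fcgr1 lie at -1.09 or lower under both inhibitors, while Stab1 and the C1q chains lie at or above 0 except C1qa under I-BET151 (-0.02).

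Promoter windows are shown for 5 members that stand for the patterns found: Fcgr1, Fcrls and Mpeg1, which fell, Stab1, which rose, and C1qc, which was not called. Each window runs from 250 bases before to 50 bases after the gene's start, 5′ to 3′, from RefSeq on GRCm38.p6, and capitals mark the letters searched for, described after the sequences.

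Fcgr1 (chr3:96293920-96294219, minus strand): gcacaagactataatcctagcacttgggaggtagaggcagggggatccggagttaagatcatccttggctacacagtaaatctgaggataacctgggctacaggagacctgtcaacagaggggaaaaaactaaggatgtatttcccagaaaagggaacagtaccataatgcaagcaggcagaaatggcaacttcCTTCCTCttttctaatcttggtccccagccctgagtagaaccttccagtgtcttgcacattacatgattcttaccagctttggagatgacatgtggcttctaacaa
Fcrls (chr3:87263475-87263774, minus strand): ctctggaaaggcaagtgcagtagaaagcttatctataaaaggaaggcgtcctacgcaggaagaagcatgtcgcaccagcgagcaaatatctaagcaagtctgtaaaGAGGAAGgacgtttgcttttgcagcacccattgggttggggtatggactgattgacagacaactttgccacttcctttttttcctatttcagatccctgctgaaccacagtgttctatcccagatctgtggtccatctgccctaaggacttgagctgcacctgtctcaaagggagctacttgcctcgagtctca
Mpeg1 (chr19:12460520-12460819, plus strand): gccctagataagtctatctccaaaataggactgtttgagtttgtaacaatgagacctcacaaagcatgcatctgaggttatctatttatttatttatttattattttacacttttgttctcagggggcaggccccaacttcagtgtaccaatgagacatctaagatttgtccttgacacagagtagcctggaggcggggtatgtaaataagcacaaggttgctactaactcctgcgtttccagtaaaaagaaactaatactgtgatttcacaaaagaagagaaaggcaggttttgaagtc
Stab1 (chr14:31168592-31168891, minus strand): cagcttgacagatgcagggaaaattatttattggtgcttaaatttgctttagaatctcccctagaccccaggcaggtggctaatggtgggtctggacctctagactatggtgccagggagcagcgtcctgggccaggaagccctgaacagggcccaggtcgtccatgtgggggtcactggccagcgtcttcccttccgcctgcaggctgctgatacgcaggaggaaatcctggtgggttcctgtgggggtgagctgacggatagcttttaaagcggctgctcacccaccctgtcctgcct
C1qc (chr4:136892865-136893164, minus strand): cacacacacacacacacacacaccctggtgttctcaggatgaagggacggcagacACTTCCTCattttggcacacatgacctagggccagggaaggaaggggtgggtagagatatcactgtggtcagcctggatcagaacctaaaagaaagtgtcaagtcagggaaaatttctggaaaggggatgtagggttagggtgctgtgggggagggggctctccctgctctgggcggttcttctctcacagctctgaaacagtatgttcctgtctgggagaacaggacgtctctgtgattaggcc

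The letters searched were GAGGAAG and its longer form GAGGAAGT, on either strand, which PU.1 is known to bind. Any match of the longer form is also one of the shorter. RefSeq windows were searched for 29 of the 38 members, some with more than 1 start, 33 windows in all. Member windows on chromosome 18, where Csf1r and Cd14 lie, were left out, so neither gene was searched. The set of all windows was not restricted in this way. The shorter form was found in 13 of the 33 windows (12 members) and in 13.6% of all 32851 windows, and the longer in 5 of the 33 (5 members) and in 3.2% of all windows. In Fcgr1 the match to the shorter form begins 56 bases before the start on the opposite strand, and in Fcrls 144 bases before it on the same strand. In C1qc the longer form lies on the opposite strand and begins 195 bases before the start. Neither form was in the Mpeg1 and Stab1 windows. Genes with the letters were found on both sides of the calls: Fcgr1, Fcrls and Pf4 were called in at least 1 comparison, whereas C1qc, Cd53, Ctss, Fcgr3, Hpgds, Itgam, Laptm5, Mrc1 and Trem2 were not.

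Among the scavenger and uptake receptors, Msr1 fell under both inhibitors and Stab1 rose under JQ1. Msr1 encodes the class A scavenger receptor, which takes up modified lipoproteins. Its intensity was 51 and 53 in I-BET151 buds, 47 and 42 in JQ1 buds and 129 and 124 in CTRL buds. Every treated array was below both CTRL arrays, and the gap was wide against the spread within each group. With I-BET151 the fall was 2.43-fold, a log2 change of -1.28 ± 0.08 (SE, n = 2 per group here and in what follows, limma adjusted p = 0.0306). With JQ1 it was 2.85-fold (-1.51 ± 0.08, adjusted p = 0.0112).

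Stab1 encodes stabilin-1, a scavenger receptor of tissue macrophages and of sinusoidal endothelium. It was at 567 and 489 in I-BET151 buds, 564 and 601 in JQ1 buds and 312 and 361 in CTRL buds, with no overlap between treated and CTRL arrays. Under JQ1 it rose 1.73-fold (log2 change 0.79 ± 0.11, adjusted p = 0.0403). The change under I-BET151 was 0.65 ± 0.11 and was not called (adjusted p = 0.0867).

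The other 6 uptake receptors were not called. Cd68, a lysosomal glycoprotein widely used to stain macrophages, was at 898 and 860 in I-BET151 buds, 772 and 791 in JQ1 buds and 1016 and 1120 in CTRL buds. The treated arrays lay below CTRL without overlap, and JQ1 just missed the threshold (log2 change -0.45 ± 0.07, adjusted p = 0.0505). Mrc1, the mannose receptor, had changes of -0.24 under I-BET151 and -0.35 under JQ1. Its CTRL arrays differed from each other (521 and 661), and its treated arrays (451 to 513) lay below both. Mertk, a receptor for dying cells, had changes of 0.21 with I-BET151 and 0.06 with JQ1, and Timd4, another, -0.13 and -0.14. Siglec1, which binds sialic acid, was at 21 to 27 on the treated arrays and 30 on both CTRL arrays, with changes of -0.33 and -0.48. Cd163, which binds haemoglobin and haptoglobin, was at 13 to 17 on the 6 arrays. At the level of both genes rounding to whole numbers leaves coarse steps.

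Among the 5 Fc receptor genes, Fcgr1 and Fcrls fell and the other 3 were not called. Fcgr1, the high-affinity receptor for IgG, was at 124 and 141 in I-BET151 buds, 98 and 106 in JQ1 buds and 277 and 286 in CTRL buds. Its fall was 2.13-fold with I-BET151 (-1.09 ± 0.09 on the log2 scale, adjusted p = 0.0421) and 2.76-fold with JQ1 (-1.47 ± 0.09, adjusted p = 0.0116). Fcrls, an Fc receptor-like molecule of microglia and some other macrophages, was at 66 and 71 in I-BET151 buds, 54 and 51 in JQ1 buds and 139 and 165 in CTRL buds. Treated and CTRL arrays of both genes were far apart, with the highest treated Fcgr1 value at 141 and the lowest CTRL value at 277. Fcrls fell 2.21-fold under I-BET151 (-1.15 ± 0.10, adjusted p = 0.0430) and 2.89-fold under JQ1 (-1.53 ± 0.10, adjusted p = 0.0149).

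Fcer1g encodes the gamma chain through which activating Fc receptors signal. It was at 1147 and 952 in I-BET151 buds, 1024 and 1063 in JQ1 buds and 901 and 952 in CTRL buds, and the I-BET151 and CTRL arrays touched at 952. Its log2 change was 0.17 ± 0.11 under each inhibitor. Fcgr3, an activating low-affinity IgG receptor, was at 208 and 197 in I-BET151 buds, 168 and 194 in JQ1 buds and 218 and 223 in CTRL buds, with changes of -0.12 ± 0.09 and -0.29 ± 0.09. Fcgr2b, the inhibitory receptor, was at 28 to 38 on all 6 arrays and overlapped between I-BET151 and CTRL.

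Of 13 other Fc receptor genes, 1 fell under each inhibitor and none rose, beside 0.87% (I-BET151) and 2.67% (JQ1) of all genes falling. It was Fcgr4, an activating IgG receptor of mouse macrophages, at 22 and 24 in I-BET151 buds, 21 on both JQ1 arrays and 40 and 46 in CTRL buds (adjusted p = 0.0432 and 0.0187). Fcgr2b, Fcgr4 and Fcgr3 are neighbours on mouse chromosome 1, and of these only Fcgr4 was called, under I-BET151 and JQ1 alike; its row was dim. Fcgrt, the neonatal receptor that carries IgG across epithelium, was at 524 to 569 on all 6 arrays. The remaining 11 genes of that list were not called in any comparison. The Fc receptor genes share related sequence, and whether the array's probes separate them fully was not tested.

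**Figure D2:**
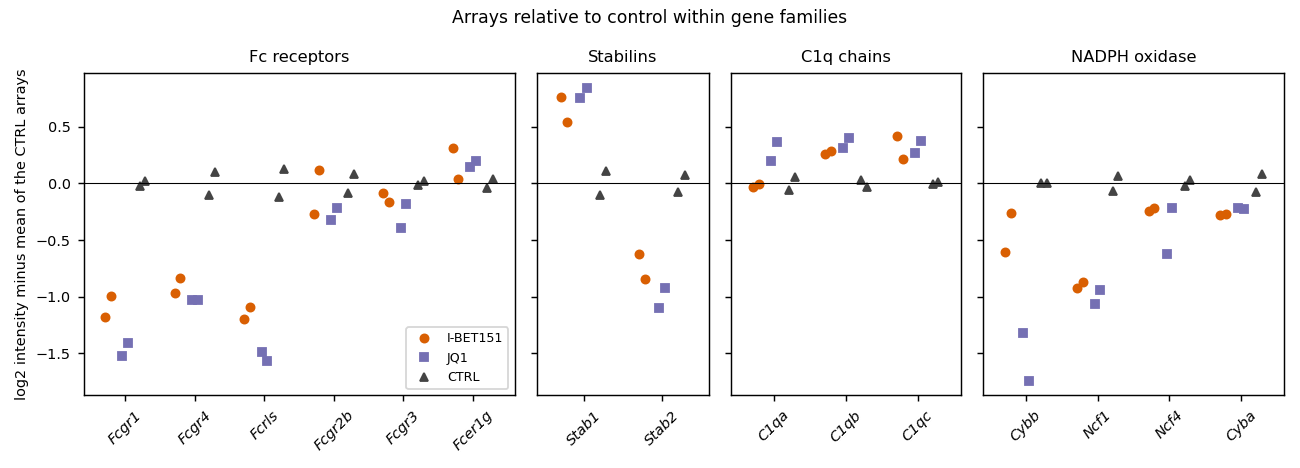
Log2 intensity of each array minus the mean of the 2 CTRL arrays for Fc receptors, stabilins, C1q chains and subunits of the NADPH oxidase; circles are I-BET151, squares JQ1 and triangles CTRL, 2 arrays each. Fcgr1, Fcgr4 and Fcrls lie far below their controls while Fcgr2b, Fcgr3 and Fcer1g lie near them, and Stab1 and Stab2 lie on opposite sides.

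Among 17 other scavenger receptor genes, Scara3 fell under both inhibitors and Cd36, Stab2 and Scarf1 fell under JQ1, with none rising. Scara3, a class A scavenger receptor family gene, was at 98 and 95 in I-BET151 buds, 71 and 74 in JQ1 buds and 156 and 146 in CTRL buds (log2 changes of -0.65 ± 0.07 and -1.06 ± 0.07). Stab2, the stabilin of sinusoidal endothelium, was at 43 and 37 in I-BET151 buds, 31 and 35 in JQ1 buds and 63 and 70 in CTRL buds, so the 2 stabilins were called in opposite directions under JQ1. Cd36, a fatty acid and lipoprotein receptor shared by macrophages and endothelium, fell 1.51-fold under JQ1. The median change of the 17 genes was -0.01 under I-BET151 and -0.03 under JQ1.

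The C1q genes lay near or above their control values, and none was called. C1q is the recognition molecule of the classical pathway, and tissue macrophages are its main source. C1qb was at 1456 and 1490 in I-BET151 buds, 1514 and 1608 in JQ1 buds and 1247 and 1196 in CTRL buds. All 4 treated arrays were above both CTRL arrays, but the changes were small: 0.27 ± 0.06 under I-BET151 (adjusted p = 0.132) and 0.35 ± 0.06 under JQ1 (adjusted p = 0.0588). C1qc was at 545 and 475 in I-BET151 buds, 490 and 528 in JQ1 buds and 406 and 411 in CTRL buds, also without overlap. C1qa was at 241 and 246 in I-BET151 buds, 283 and 318 in JQ1 buds and 238 and 257 in CTRL buds, and overlapped with CTRL under I-BET151.

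The median of the 3 chains was 0.27 under I-BET151 and 0.32 under JQ1, and it stayed between 0.22 and 0.38 without any 1 array, with dim genes left out or with arrays centred. The 3 genes are neighbours on mouse chromosome 4. Of 21 other complement genes measured, C7 fell under both inhibitors and Cfp under JQ1, and none rose. The share of all genes that fell was 0.87% under I-BET151 and 2.67% under JQ1. C7, a component of the membrane attack complex, was at 21 and 24 in I-BET151 buds, 21 and 17 in JQ1 buds and 65 and 56 in CTRL buds. Cfp, which encodes properdin and is made by myeloid cells, was at 90 and 81 in I-BET151 buds, 66 and 78 in JQ1 buds and 113 and 124 in CTRL buds. C3ar1, the C3a receptor, was at 382 and 375 in I-BET151 buds, 350 and 325 in JQ1 buds and 387 and 488 in CTRL buds and was not called.

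Csf1r, Spi1, Tyrobp and Ptprc, which mark or specify the lineage, were not called. Csf1r, the receptor for CSF1 and IL-34, was at 824 and 701 in I-BET151 buds, 633 and 700 in JQ1 buds and 540 and 592 in CTRL buds. Its treated arrays were all above CTRL, with changes of 0.43 ± 0.11 and 0.24 ± 0.11 that were not called (adjusted p = 0.156 and 0.319). Spi1, the gene of PU.1, was at 526 and 459 in I-BET151 buds, 412 and 470 in JQ1 buds and 521 and 515 in CTRL buds, where I-BET151 and CTRL overlapped. Tyrobp, the adaptor DAP12, had changes of 0.18 and 0.02. Ptprc, the pan-leukocyte phosphatase CD45, had changes of -0.19 and -0.29.

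Of the 11 lineage and leukocyte genes, 1 fell under JQ1 and 0 under I-BET151, beside 2.67% and 0.87% of all genes. This was Itgb2, the beta chain of the leukocyte integrins, at 83 and 81 in I-BET151 buds, 73 and 79 in JQ1 buds and 104 and 115 in CTRL buds. It fell 1.44-fold under JQ1 (log2 change -0.53 ± 0.08, adjusted p = 0.0457). Its partner Itgam, the alpha chain CD11b, had a similar change of -0.41 with a wide SE of 0.21, and its CTRL arrays read 39 and 54. The change of Itgb2 under JQ1 ranged from -0.60 to -0.45 over all fits run. Fits that dropped 1 array called no gene, Itgb2 included, unless dim genes were left out too, a choice made after seeing the data.

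Aif1, the calcium-binding protein IBA1 used to stain macrophages and microglia, was at 44 and 53 in I-BET151 buds, 43 and 48 in JQ1 buds and 69 and 67 in CTRL buds. Its arrays did not overlap, and its changes of -0.49 ± 0.11 and -0.58 ± 0.11 were not called (adjusted p = 0.131 and 0.0708). Laptm5, a lysosomal membrane protein of blood cells, was at 1108 and 1046 in I-BET151 buds, 965 and 991 in JQ1 buds and 1217 and 1274 in CTRL buds (not called). Cx3cr1, the fractalkine receptor, and the tetraspanin Cd53 were lower under JQ1 by 0.54 and 0.48 on the log2 scale, against 0.16 and 0.06 under I-BET151, with none of these called. Coro1a, an actin regulator of leukocytes, had changes of -0.26 and -0.17. The median of the 11 genes was -0.19 under I-BET151 and -0.35 under JQ1.

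The enzymes and effectors had the lowest medians of the role groups, -0.44 under I-BET151 and -0.67 under JQ1. All 5 measured genes were below CTRL on all 4 treated arrays, as were 14.9% of all genes. Mpeg1, which encodes the pore-forming protein perforin-2 of phagocytes, was at 192 and 223 in I-BET151 buds, 110 and 126 in JQ1 buds and 348 and 374 in CTRL buds. Under JQ1 it fell 3.06-fold (log2 change -1.62 ± 0.11, adjusted p = 0.0152), and under I-BET151 the change of -0.80 ± 0.11 was not called (adjusted p = 0.0626). Cybb, the catalytic subunit of the phagocyte NADPH oxidase, was at 90 and 114 in I-BET151 buds, 55 and 41 in JQ1 buds and 137 on both CTRL arrays. The 3 groups did not overlap. The fall under JQ1 was 2.89-fold (-1.53 ± 0.18, adjusted p = 0.0294), and the change under I-BET151 was -0.44 ± 0.18 (adjusted p = 0.302).

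Pf4, the chemokine CXCL4 of platelets and fetal macrophages, was at 60 and 52 in I-BET151 buds, 62 and 72 in JQ1 buds and 101 and 112 in CTRL buds. It missed the threshold under each inhibitor (adjusted p = 0.0538 and 0.0588) and fell 1.74-fold for the mean of both (adjusted p = 0.0307). Ctss, the lysosomal protease cathepsin S, was at 263 and 252 in I-BET151 buds, 214 and 225 in JQ1 buds and 311 and 381 in CTRL buds, with changes of -0.42 ± 0.11 and -0.65 ± 0.11 that were not called (limma adjusted p = 0.162 and 0.0557). Under JQ1 Ctss was called in 7 of 9 alternative settings that dropped no single array, as was Itgb2. Those 7 settings each called more genes (1270 to 2373) than the fit reported (912), and the remaining settings called no gene. Hpgds, a prostaglandin D synthase, had changes of -0.18 and -0.40.

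Other subunits of the NADPH oxidase were set beside Cybb, chosen after their values were seen except Ncf1. Ncf1, the p47 organiser subunit, was at 74 and 77 in I-BET151 buds, 67 and 73 in JQ1 buds and 134 and 147 in CTRL buds, and fell under both inhibitors (1.86-fold and 2.01-fold). Ncf4, the p40 subunit, had changes of -0.23 with I-BET151 and -0.42 with JQ1, and Cyba, the p22 subunit, -0.27 and -0.22; neither was called. Cyba is also expressed outside phagocytes.

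Of the 6 other surface receptors, P2ry12 and Ms4a7 fell under JQ1 and none under I-BET151, beside 2.67% and 0.87% of all genes. P2ry12, the ADP receptor known from microglia and platelets, was at 53 and 58 in I-BET151 buds, 39 and 45 in JQ1 buds and 79 and 81 in CTRL buds. The groups did not overlap, and the fall under JQ1 was 1.91-fold (log2 change -0.93 ± 0.10, adjusted p = 0.0221). Ms4a7, a tetraspan protein of tissue macrophages, was at 73 and 77 in I-BET151 buds, 58 and 47 in JQ1 buds and 86 and 98 in CTRL buds (-0.81 ± 0.13 under JQ1, adjusted p = 0.0485). Trem2, a lipid-sensing receptor that signals through Tyrobp, was at 182 and 161 in I-BET151 buds, 157 and 150 in JQ1 buds and 205 and 228 in CTRL buds and was not called (adjusted p = 0.170 and 0.0667). Cd86, a costimulatory ligand, was at 101 and 112 in I-BET151 buds, 95 and 73 in JQ1 buds and 86 and 88 in CTRL buds. The monocyte genes were dim: Ccr2, the receptor for CCL2, was at 18 to 21 and Cd14, the endotoxin co-receptor, at 24 to 41 on the 6 arrays.

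**Figure D3:**
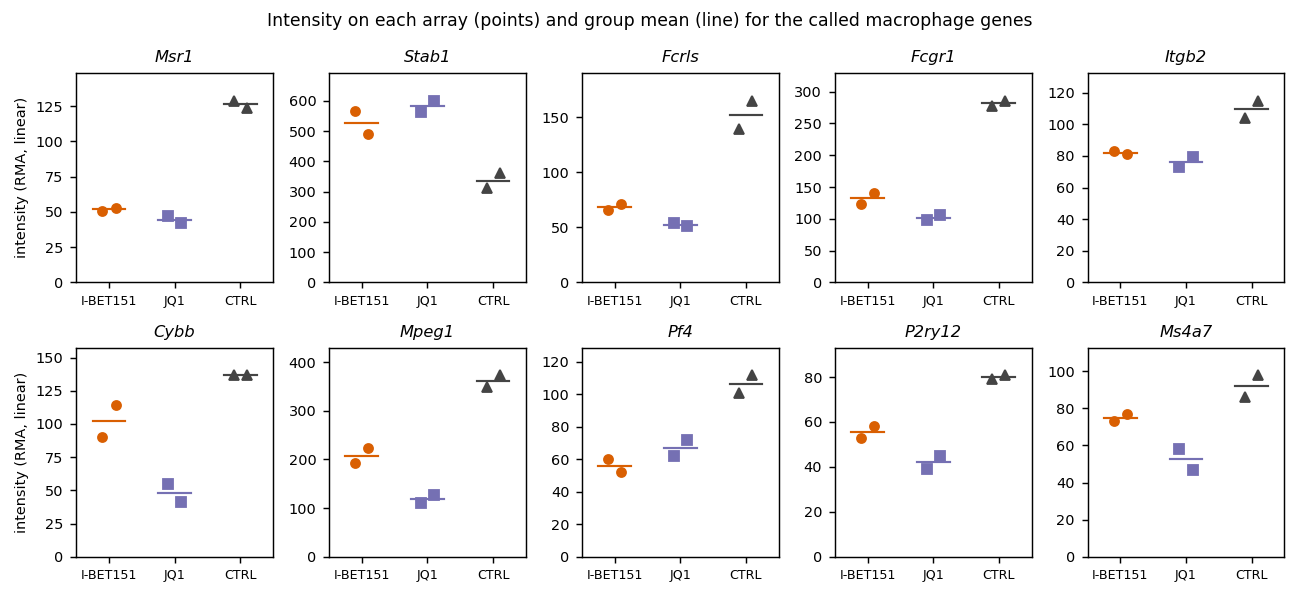
Intensity on each array (points, linear axis from 0) and group mean (line) of the 10 macrophage genes called in at least 1 comparison with CTRL; circles are I-BET151, squares JQ1 and triangles CTRL, 2 arrays each. Treated arrays lie below CTRL in every panel but that of Stab1, and JQ1 arrays lie below I-BET151 arrays in every panel but those of Stab1 and Pf4.

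Under I-BET151 all 3 called members came from the scavenger and Fc receptor groups, and 0 of the other 25 were called. Under JQ1, 5 of those 25 fell. The split under I-BET151 rests on the threshold, which Pf4 and Mpeg1 missed (limma adjusted p = 0.0538 and 0.0626). Both were called under I-BET151 in 7 of 9 alternative settings that dropped no single array, as were Msr1, Fcrls and Fcgr1. Those 7 settings each called more genes (446 to 1438) than the fit reported (272), and the remaining settings called no gene. The tally therefore gives no separate support to any of these genes. Of the 13 scavenger and Fc receptors, 3 fell under each inhibitor and Stab1 rose under JQ1. Of the 14 complement and lineage genes, 0 were called under I-BET151 and 1 fell under JQ1. Over all genes 1.13% were called under I-BET151 and 3.8% under JQ1. The median changes of the 13 receptors were -0.13 and -0.29, and those of the 14 genes -0.12 and -0.26. The difference between these classes was not tested.

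JQ1 at 100 nM and I-BET151 at 500 nM were compared as given, at unequal doses, so their values stand side by side and no order of strength follows. No gene of 24010 was called between them by limma (percent called 0), whose smallest adjusted p was 0.718, nor in any alternative run. At an unadjusted p under 0.05 there were 1610 genes (6.71%), including 11 of the 38 members. Cybb differed by -1.09 ± 0.18 on the log2 scale (JQ1 minus I-BET151, 95% interval -1.57 to -0.61) and Mpeg1 by -0.81 ± 0.11 (-1.11 to -0.52). The intervals are for single genes without adjustment. For Msr1 the difference was -0.23 (-0.43 to -0.02) and for Stab1 0.14 (-0.15 to 0.44). In this difference 30 of 38 members were below 0, with a median of -0.15, while 47.2% of all genes were below 0. Both JQ1 arrays lay below both I-BET151 arrays for 21 members and above them for 3, beside 13.9% and 14.6% of all genes. The absence of calls does not show that the compounds act alike.

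Further macrophage genes, 60 measured of a list of 65, gave 1 fall under I-BET151 and 9 falls and 1 rise under JQ1. Of all genes 0.87% fell under I-BET151, so 1 fall of 60 is near that share. Under JQ1 2.67% of all genes fell and 1.13% rose. The list's median was -0.19 under I-BET151 and -0.22 under JQ1. Tlr13, a receptor for bacterial ribosomal RNA, was at 46 and 44 in I-BET151 buds, 35 and 26 in JQ1 buds and 102 and 135 in CTRL buds, 3.89-fold lower under JQ1. Slc11a1, a metal transporter of the phagosome, was at 223 and 221 in I-BET151 buds, 173 and 195 in JQ1 buds and 358 and 412 in CTRL buds. Lcp1, the leukocyte actin bundler L-plastin, was at 661 and 654 in I-BET151 buds, 508 and 549 in JQ1 buds and 914 and 993 in CTRL buds. All 3 genes fell under JQ1 and for the mean of both inhibitors.

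Hcls1, a cortactin relative of blood cells, and F13a1, the factor XIII subunit of macrophages and platelets, also fell under JQ1 (1.97-fold and 1.66-fold). The rise was Apoe, a lipoprotein of macrophages and many other cells, at 1827 and 1865 in I-BET151 buds, 2080 and 2060 in JQ1 buds and 1406 and 1539 in CTRL buds; it was chosen after its values were seen. Adgre1, the gene of F4/80, was at 282 and 261 in I-BET151 buds, 253 and 274 in JQ1 buds and 231 and 286 in CTRL buds and overlapped in both comparisons; it too was chosen after its values were seen. The growth factor Csf1 was at 169 and 168 in I-BET151 buds, 152 and 173 in JQ1 buds and 192 and 197 in CTRL buds, and none of 5 macrophage growth factor ligands was called. The cathepsin gene Ctsb and the progranulin gene Grn, lysosomal genes of many cell types, were not called: Ctsb had changes of 0.18 with I-BET151 and 0.30 with JQ1, and Grn 0.20 and 0.32.

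Some markers of other cell types also fell, beside 0.87% of all genes under I-BET151 and 2.67% under JQ1. Of 10 markers of sinusoidal, lymphatic and other endothelium, which shares Stab1, Mrc1 and Fcgr2b with macrophages, 1 fell with I-BET151 (Tek) and 5 with JQ1 (Tek, Emcn, Stab2, Pecam1 and Cdh5). Their summed intensity was 4062 to 4277 in I-BET151 buds, 3737 to 3898 in JQ1 buds and 5363 to 5441 in CTRL buds, and Clec4g was at 15 to 16. Among 10 mast cell and basophil markers Hdc fell for the mean of both inhibitors and Cpa3 fell under JQ1, at 30 and 44 in I-BET151 buds, 39 and 30 in JQ1 buds and 115 and 127 in CTRL buds. That list summed to 726 to 820 in I-BET151 buds, 692 to 751 in JQ1 buds and 926 to 1066 in CTRL buds, and its proteases Mcpt4, Mcpt8 and Cma1 lay at 7 to 15. Most of this sum was Kit, which was not called. Kit was at 538 and 619 in I-BET151 buds, 533 and 507 in JQ1 buds and 632 and 744 in CTRL buds.

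Among 10 neutrophil markers Mpo, which early myeloid progenitors also express, was at 37 and 30 in I-BET151 buds, 29 and 32 in JQ1 buds and 91 and 90 in CTRL buds. Mpo fell under both inhibitors, and no other gene of the list was called. The list's median change was 0.13 under I-BET151 and 0.03 under JQ1, with 2 and 3 of the 10 genes below 0. Its sums, which include Mpo, were 240 to 361 in I-BET151 buds, 258 to 273 in JQ1 buds and 307 to 329 in CTRL buds. The upper I-BET151 sum holds a value of 95 for Ngp, which was at 37 on the other I-BET151 array. Of 6 platelet markers none was called under either inhibitor and Gp6 fell for the mean of both, with sums of 475 to 477 in I-BET151 buds, 515 to 549 in JQ1 buds and 575 to 651 in CTRL buds. None of 10 lymphocyte markers was called (sums of 199 to 202, 184 to 200 and 215 to 228 in I-BET151, JQ1 and CTRL buds). Of 9 erythroid markers Tfrc fell under JQ1, with list sums of 8192 to 8577 in I-BET151 buds, 8645 to 8712 in JQ1 buds and 8299 to 9125 in CTRL buds. Most of the erythroid sum was Hbb-y, at 6181 to 6727 on the 6 arrays. The summed intensity of the 38 members was 10458 to 11040 in I-BET151 buds, 9815 to 10289 in JQ1 buds and 10808 to 11587 in CTRL buds. Each sum is weighted to the brightest genes of its list, and cell numbers were not measured. The part of these other cells in the changes of the members was not tested.

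**Figure D4:**
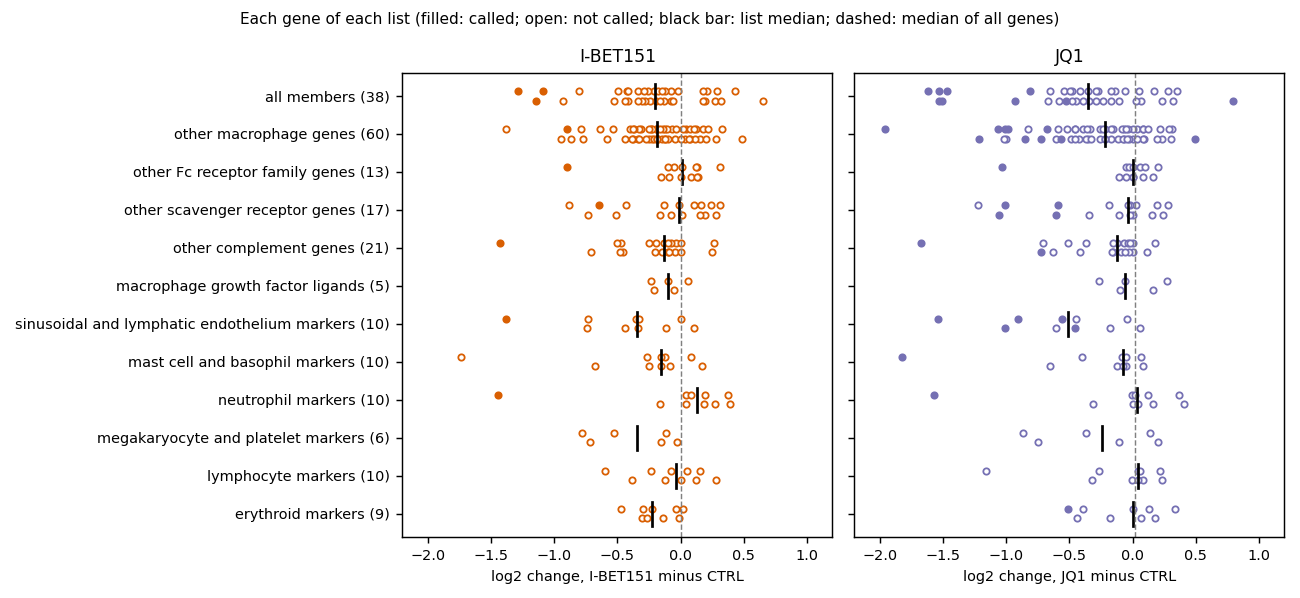
Log2 change of each gene in the member list and in 11 other lists (number measured in brackets), I-BET151 minus CTRL on the left and JQ1 minus CTRL on the right. Filled points are called genes, black bars list medians and the dashed line the median of all genes; the endothelial list has the lowest median under JQ1 (-0.51) of the lists drawn.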

How the data were processed

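Expression was measured on 6 whole-transcript arrays, 2 per group, and groups and replicate numbers come from the sample titles. The authors deposited linear intensities made with RMA, per the submitters' processing notes, as whole numbers from 5 upward; no RMA version and no rule for combining probes was stated. RMA makes the arrays' distributions alike, which hides any shift common to most genes. Depth has no count equivalent on arrays, and their number limits the precision.

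Of 24972 rows, 24014 had a gene symbol in the platform annotation and 958 stayed unnamed; 1 row per symbol, that with the highest mean, left 24010 genes. Identifiers of 23918 genes were found in the RefSeq table of GRCm38.p6, used for names and neighbours. From log2(intensity), with no pseudocount and no filter, limma 3.58.1 in R 4.3.3 fitted all 6 arrays (lmFit and eBayes; 3 residual and 1.76 prior degrees of freedom), with Benjamini-Hochberg adjustment over 24010 genes. The fit was also run on simulated data, with known changes planted in genes above the median intensity. That run checked the size of the estimated changes and does not bear on which calls hold without 1 array. The members and lists were chosen with earlier results of these data known. Values on all arrays are given for members called in any comparison, those with a mean change of at least 0.5 (log2) and arrays apart from CTRL, and the brightest of each role, and for C1qa, C1qc, Csf1r, Spi1, Fcgr3 and Cd86, chosen after their values were seen. Of other lists, up to 6 called genes and up to 2 of the brightest could be named, some with values on all arrays. Clec4g, Mcpt4, Mcpt8, Cma1 and Ngp were added after their values were seen. Alternatives were each array left out, filters on dim genes, centring, other variance priors, a pseudocount of 16, the compared groups alone, dithered rounding and the replicate number as a block.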

Additional observations from a re-analysis of the deposited data

Results flagged for a closer look

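Of 205 genes in the member list and the other lists, 2 had CTRL arrays that lay between the I-BET151 pair and the JQ1 pair without overlap, and neither is a member. Clec7a, the receptor Dectin-1 for fungal glucans, was at 421 and 366 in I-BET151 buds, 227 and 245 in JQ1 buds and 316 and 330 in CTRL buds. Its difference of JQ1 minus I-BET151 was -0.74 on the log2 scale, with limma adjusted p = 0.718 over all genes, so it did not pass. Itgb3, the integrin beta 3 chain, was at 138 and 153 in I-BET151 buds, 167 and 191 in JQ1 buds and 160 and 164 in CTRL buds, a difference of 0.30 (adjusted p = 0.725). Both genes were chosen after their values were seen. Groups of 2 arrays were too small to look for single outlying arrays.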

How the results depend on the processing

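Counts of called genes changed with most settings. The counts of genes and of members are given in that order for I-BET151 against CTRL (272 and 3 as reported), JQ1 against CTRL (912 and 9) and the mean of both inhibitors (1181 and 9). With genes below the median intensity left out, which keeps 30 members among 12005 genes, they were 1438 and 10, 2373 and 18, and 2689 and 19. The share of all kept genes that was called thus rose as well. Without the dimmest 25% of genes, which keeps 37 members among 17974 genes, they were 801 and 7, 1733 and 18, and 2049 and 15. With each array centred they were 533 and 6, 1391 and 12, and 1738 and 12. With an intensity trend they were 446 and 5, 1377 and 14, and 1681 and 13, with a robust prior 548 and 5, 1270 and 15, and 1462 and 14, with log2(intensity + 16) 661 and 5, 1615 and 17, and 1963 and 16, and with dithered rounding 596 and 6, 1322 and 15, and 1554 and 14. With only the arrays of the groups compared, and with the replicate block, every count was 0 (with the block, 4054 and 4709 genes had an unadjusted p below 0.05 for I-BET151 and JQ1). Over all genes the replicate numbers showed no pairing of the arrays: the differences between replicates 1 and 2 correlated at -0.016, -0.026 and -0.0399 between groups. With 1 difference per group this cannot show whether pools shared a litter or a culture day. Leaving out 1 array gave 0 for each count; a group of 1 array is then assumed to vary like the others. With genes below the median left out as well, chosen after seeing the data, the fits without I-BET151 1, I-BET151 2, JQ1 1, JQ1 2, CTRL 1 and CTRL 2 called 395, 768, 1059, 1059, 413 and 406 genes for I-BET151, 2221, 2221, 968, 1038, 1122 and 1031 for JQ1, and 1936, 2331, 1767, 1870, 1079 and 994 for the mean of both. Members called then ranged from 5 to 8, 8 to 19 and 8 to 18. JQ1 against I-BET151 gave 0 in each fit run. The direction against CTRL of the members chosen by the rule was kept in every fit run. For JQ1 minus I-BET151, Fcer1g (-0.0023 as reported) ranged from -0.14 (without I-BET151 2) to 0.13 (without I-BET151 1), with 0.025 without JQ1 1 and 0.011 with arrays centred, and Aif1 (-0.088) ranged from -0.22 without I-BET151 1 to 0.046 without I-BET151 2. The cause of these shifts was not tested. Dim rows, such as Cd163, limit what rounding allows to be seen.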
